A study of Mus musculus with 5 samples.

Results

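The blood lineage transcription factors are 10 genes chosen by name, with earlier results of these data known: Tal1, Lyl1, Runx1, Runx3, Spi1, Gfi1, Gfi1b, Ebf1, Ikzf2 and Ikzf3. They were taken from 22351 genes of the mm9 annotation, all the protein-coding records on chromosomes 1 to 19 and X together with Gfi1. The peak lists describe mouse embryonic fibroblasts (MEFs) derived from a mid-gestation embryo whose EED gene, which encodes a PRC2 subunit, was flanked by loxP sites. All 3 lines used here kept this EED floxed allele and were made by lentiviral transduction for stable expression. The K27R line expressed histone H3.3 K27R, the K27M line H3.3 K27M, and the EZHIP line the human EZHIP protein. By the study's methods the lentiviral vector carried the EF1a promoter, which is active in most cell types, and transduced cells were selected with puromycin. Each line had 1 H3K27me3 ChIP-Seq library, and the parental control and the EED deletion clone were not analysed here. K27R served as the reference for the other lines. The lists differed in the spacing of their peaks, with the closest neighbours 0 bp apart in K27R, 5200 bp in K27M and 1200 bp in the EZHIP list. Whether all were called with the same settings is not known, and this bears on every width and kept share relative to K27R. Because the lists hold positions without read counts, depth is unknown, and no difference could be compared with the spread between replicates.

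H3K27me3 is laid down by PRC2, which is recruited to CpG islands of silent developmental genes and spreads the mark to neighbouring nucleosomes. H3 K27M and EZHIP both inhibit PRC2. Fibroblasts do not make blood cells, and the genes studied here encode transcription factors that act in blood lineages, some of them also elsewhere. Tal1 and Lyl1 are basic helix-loop-helix factors of blood stem and progenitor cells. Runx1 is needed for the emergence of definitive blood stem cells, and Runx3 acts in T cells and sensory neurons. Spi1 encodes PU.1, an ETS factor of myeloid and B cells. Gfi1 and Gfi1b are zinc finger repressors of myeloid and of erythroid and megakaryocytic cells, respectively. Ebf1 commits progenitors to the B lineage, and Ikzf2 (Helios) and Ikzf3 (Aiolos) are lymphoid members of the Ikaros family. No expression values were analysed here.

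A start site is the 5′ end of the gene record, and it was counted as marked when it lay inside a peak. The K27R list marked 5 of the 10 start sites, those of Tal1, Gfi1, Gfi1b, Ebf1 and Ikzf3, where 30.1% of all genes were marked. The exact 95% interval of 5 in 10, 18.7 to 81.3%, included that share. The K27M list marked 4, all but Ebf1, beside 9.02% of all genes. The EZHIP list marked the same 4 start sites, beside 7.74% of all genes. Both residual lists, as the K27M and EZHIP lists are called here, thus held Tal1, Gfi1, Gfi1b and Ikzf3, against 6.61% of all genes. The exact 95% interval of 4 in 10 runs from 12.2 to 73.8%, which covers counting error only and does not allow for the choice of the genes. Among the 6736 genes marked in K27R, 29.9% were kept in K27M, 25.6% in EZHIP, 21.9% in both and 66.4% in neither. Of the 5 marked members, 4 were kept in both and 1 in neither. The other 5 members had no marked start site in any list, as did 69.8% of all genes. Runx3 had its mark inside the gene, Runx1 had a small K27R region in an intron, and Lyl1, Spi1 and Ikzf2 had no peak of any list over the gene.

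**Figure D1:**
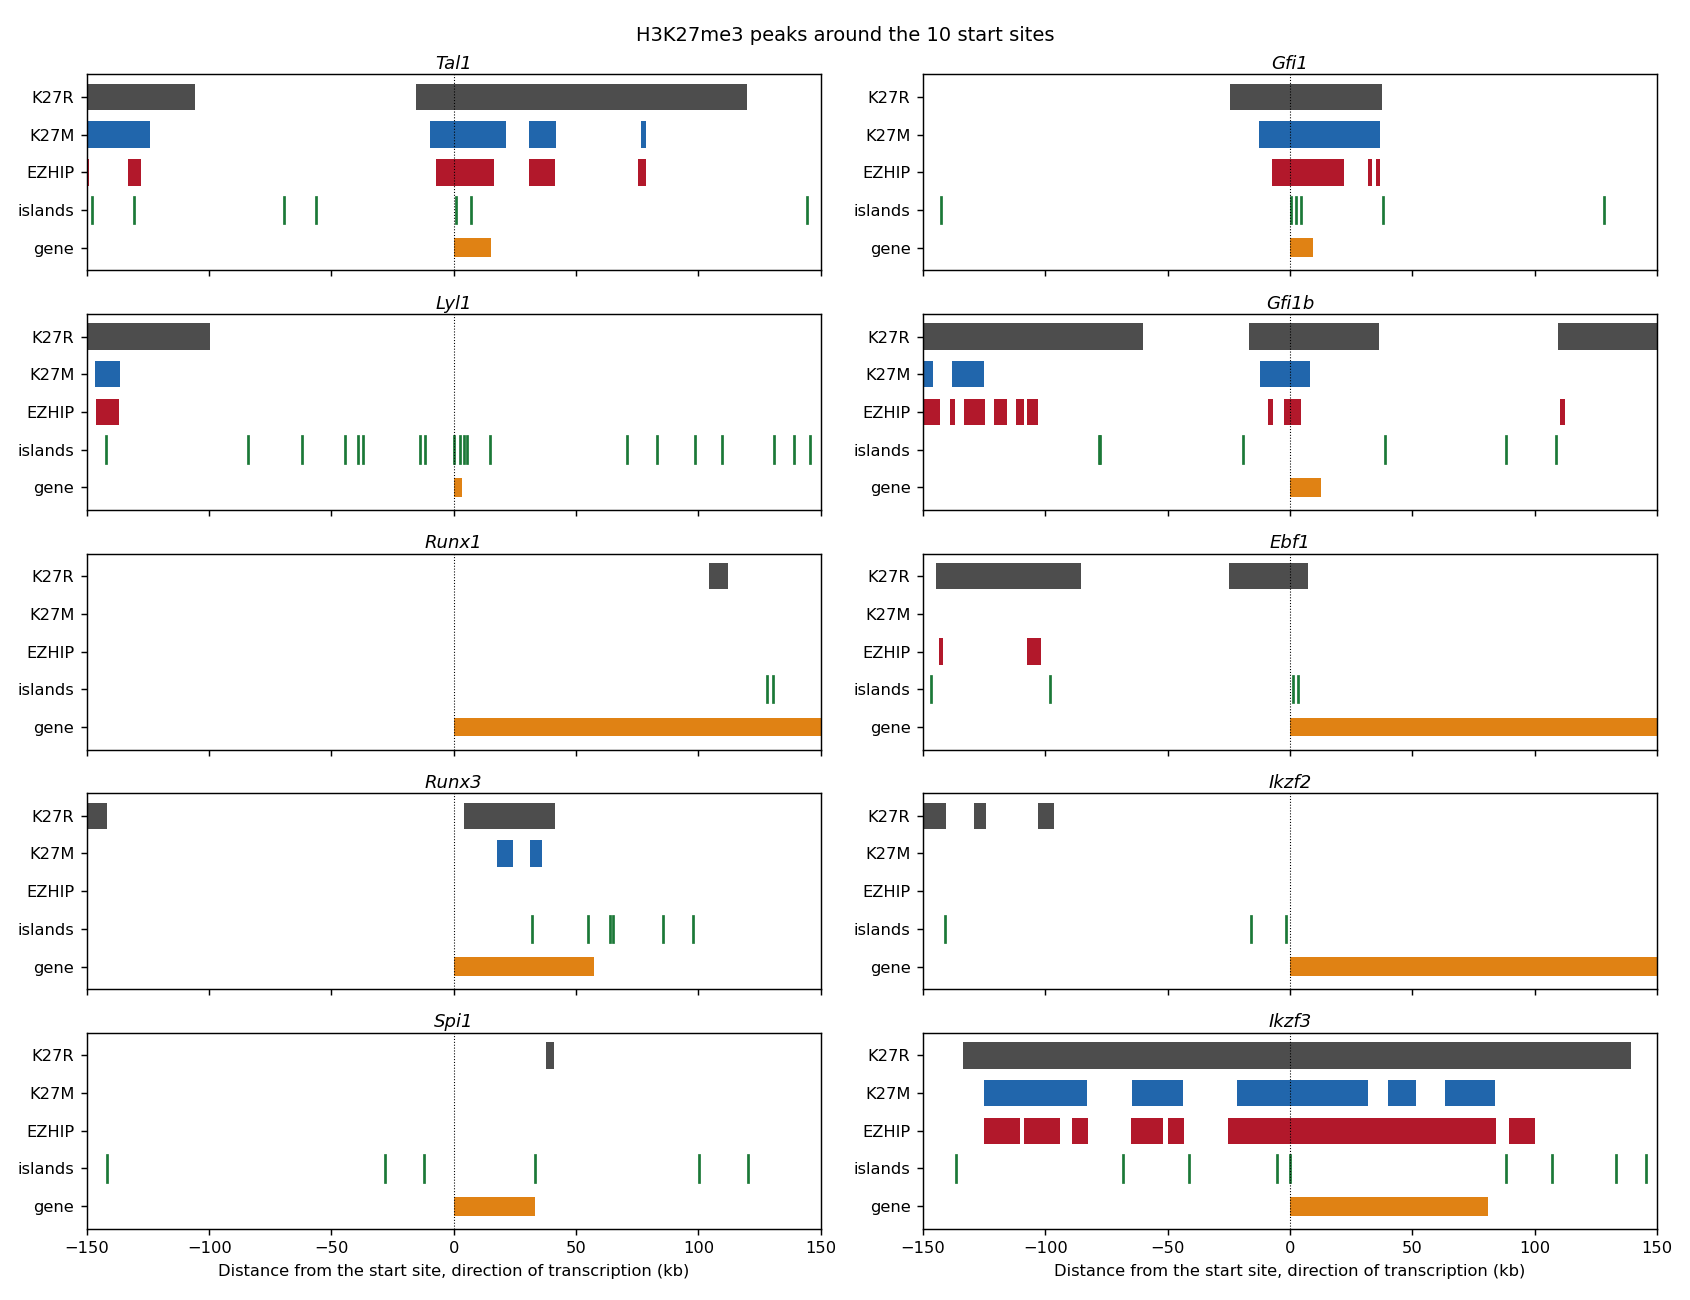
Intervals of the K27R, K27M and EZHIP lists within 150 kb of each start site, with CpG islands as green ticks and the gene as an orange bar; the x axis is the distance from the start site in kb along the direction of transcription, and features reaching past the window are cut at its edge. Residual peaks sit over the start sites of Tal1, Gfi1, Gfi1b and Ikzf3, and the K27R region over the Ebf1 start site holds none.

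The DNA before 5 of these starts is shown because it spans the different outcomes: kept in both residual lists without an island (Gfi1b) and with one (Ikzf3), lost from both (Ebf1), and the internal starts of Runx3, marked in K27R and K27M, and of Runx1, marked in no list. Each run is the 250 bases upstream of the start in mm9, 5′ to 3′ on the gene's strand, with every CG in capitals.
Gfi1b, chr2:28477503-28477752, minus strand: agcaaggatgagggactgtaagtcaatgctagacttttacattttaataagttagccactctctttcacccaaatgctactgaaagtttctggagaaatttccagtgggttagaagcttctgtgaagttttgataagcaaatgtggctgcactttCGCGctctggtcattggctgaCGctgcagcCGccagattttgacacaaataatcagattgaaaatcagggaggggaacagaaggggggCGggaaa
Ikzf3, chr11:98407346-98407595, minus strand: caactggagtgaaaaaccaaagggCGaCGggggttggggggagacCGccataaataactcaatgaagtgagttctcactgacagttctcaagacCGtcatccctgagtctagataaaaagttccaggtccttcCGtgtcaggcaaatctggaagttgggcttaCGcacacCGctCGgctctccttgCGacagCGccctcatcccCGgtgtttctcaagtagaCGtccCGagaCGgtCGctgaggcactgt
Ebf1, chr11:44430569-44430818, plus strand: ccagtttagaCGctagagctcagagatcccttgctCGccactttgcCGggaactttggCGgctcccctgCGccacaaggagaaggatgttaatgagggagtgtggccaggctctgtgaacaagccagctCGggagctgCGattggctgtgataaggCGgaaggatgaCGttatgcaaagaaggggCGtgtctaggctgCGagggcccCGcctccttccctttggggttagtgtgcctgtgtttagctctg
Runx3 internal start, chr4:134708161-134708410, plus strand: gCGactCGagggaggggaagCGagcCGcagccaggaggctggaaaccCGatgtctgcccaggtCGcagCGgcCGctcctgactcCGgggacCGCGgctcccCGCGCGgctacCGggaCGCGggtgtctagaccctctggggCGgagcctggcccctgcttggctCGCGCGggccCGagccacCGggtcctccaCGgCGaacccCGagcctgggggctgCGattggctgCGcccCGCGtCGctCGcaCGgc
Runx1 internal start, chr16:92697574-92697823, minus strand: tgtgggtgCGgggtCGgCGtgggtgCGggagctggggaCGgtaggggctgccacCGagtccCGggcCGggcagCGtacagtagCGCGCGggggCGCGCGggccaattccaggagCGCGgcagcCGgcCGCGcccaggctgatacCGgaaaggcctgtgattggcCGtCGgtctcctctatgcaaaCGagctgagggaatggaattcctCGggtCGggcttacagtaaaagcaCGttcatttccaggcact
The Gfi1b run holds 5 CG, fewer than Ebf1 with 12 and Ikzf3 with 15, and the internal Runx3 and Runx1 runs hold 33 and 27. The median over all genes was 8 CG in the same window. It was 13 among the 1477 genes kept in both residual lists and 4 among the 4476 genes marked in K27R and in neither residual list. Gfi1b therefore fell below the median of the kept genes. So did Tal1 with 6 CG and Gfi1 with 8, which were kept and have an island at the start. Ebf1 lay above the median of the lost genes.

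The upstream runs were also searched on both strands for short motifs bound by blood factors. The RUNX core TGTGGT, present in 12.8% of all genes' windows, occurred 2 times before the Runx3 5′ end and 1 time before Gfi1. AGATAA, a form of the GATA motif (9.29% of all windows), occurred once each before Tal1 and Ikzf3. The form TGATAA was not counted, and the Gfi1b and Ebf1 runs printed above hold it. The E-box CANNTG, the site type of Tal1 and Lyl1, lay in 63.6% of all windows and in those of Lyl1, Runx1, Runx3, Gfi1b and Ikzf3. The ETS motif AGGAAG, the site type of Spi1, lay in 29.0% of all windows, and occurred 2 times before Gfi1 and 1 time each before Spi1 and the Runx1 5′ end. These matches are letters in a window and do not show binding.

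Tal1 and Lyl1, paralogues with overlapping roles in blood progenitors, stood at opposite ends. Tal1 (ENSMUSG00000028717.6) lies on chromosome 4 from 114729031 to 114744360, plus strand. Its K27R region spanned 135.6 kb, from 15.6 kb upstream of the start site to 119.97 kb downstream. The K27M peak over the gene spanned 31.0 kb (114719401 to 114750400) and the EZHIP peak 23.8 kb (114721601 to 114745400). The EZHIP peak lay wholly inside the K27M peak and made up 76.8% of it. All 15.3 kb of the gene, with its 7 exon blocks, stayed inside peaks in every list. A CpG island of 1514 bp covered the start site and another of 489 bp lay within the gene, and both were inside the K27M and EZHIP peaks.

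The Tal1 region held 2 further start sites, and both also kept the mark. Pdzk1ip1 had an 11.0 kb peak in each residual list, from 114759801 to 114770800 in K27M and from 114759601 to 114770600 in EZHIP. These peaks had the same width and were offset by a single 200 bp bin. Cyp4x1 had a 2.2 kb K27M peak and a 3.4 kb EZHIP peak at its start. No CpG island was found in the peaks over Pdzk1ip1 and Cyp4x1. Residual peaks covered 32.6% of the region in K27M and 28.2% in EZHIP. Over all K27R regions that held such a peak, the medians were 15.2% in 2117 regions and 11.4% in 2180 regions.

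Lyl1 (ENSMUSG00000034041.4, chromosome 8, 87225356 to 87228614, plus strand) had no peak in any list. The nearest lay upstream over Cacna1a, a calcium channel gene, at 99.6 kb for K27R, 136.6 kb for K27M and 136.8 kb for EZHIP. In K27R, 24.2% of all genes were farther from a peak. Lyl1 also had a CpG island, of 343 bp, starting 101 bp downstream of its start site, as Tal1 did.

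Both Runx genes are read from a distal and a proximal promoter, and the 5′ ends of their records are the distal starts. Neither distal start was marked. Runx3 (ENSMUSG00000070691.4) lies on chromosome 4 from 134676567 to 134733905, plus strand. A K27R region of 37.2 kb (134680601 to 134717800) began 4.03 kb downstream of the distal start and covered 64.9% of the gene. It contained the other 5 of 6 annotated starts, the first of them 31.8 kb into the gene, and a CpG island of 1027 bp with 139 CG.

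Within this region the K27M list kept 2 peaks and the EZHIP list none. One K27M peak of 5.0 kb (134707801 to 134712800) lay over the island and the 5 internal starts. The other, of 6.6 kb (134694201 to 134700800), overlapped no annotated exon of Runx3. Together they covered 11.6 kb, or 20.2% of the gene. The EZHIP peak closest to the distal start was 250.2 kb away, over Rhd, and from the first internal start it was 282.0 kb away. Runx3 was the only one of the 10 genes with K27M peaks over the gene and no EZHIP peak. A 5′ end outside K27R peaks with another annotated start inside them was found in 1.52% of all genes. Over all genes, 0.327% had an internal start in K27M peaks, a 5′ end outside them and no start in EZHIP peaks. Both patterns follow what Runx3 showed, and genes with a single annotated start or no mark could not show them. These shares therefore do not measure how unusual Runx3 was.

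Runx1 (ENSMUSG00000022952.9, chromosome 16, 92601712 to 92826311, minus strand) had no marked start among 5. Its only interval was a K27R region of 7.8 kb (92714201 to 92722000), between the distal and proximal starts, which overlapped no exon and no island and covered 3.47% of the gene. The first internal start lay 16.6 kb from it and 193.0 and 195.6 kb from the nearest K27M and EZHIP peaks. The internal start of Runx1 touched a CpG island, as that of Runx3 did, and the counts of CG before them were 27 and 33. The closest residual peaks to the distal start, 321.7 kb away in K27M and 324.3 kb in EZHIP, began at the same base downstream of Runx1 and overlapped Clic6.

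The Gfi pair was marked in all lists. Gfi1 (ENSMUSG00000029275.10, chromosome 5, 108145674 to 108155056, minus strand) is recorded as a processed transcript in this annotation. A K27R region of 62.0 kb (108117401 to 108179400) held Gfi1 as its only start site. The K27M peak spanned 49.4 kb (108118401 to 108167800), so that 79.7% of the region remained, and only 3.45% of the K27R regions with K27M peaks kept a larger share. The EZHIP list kept a 29.6 kb peak over the gene (108132801 to 108162400) and 2 peaks of 1.6 kb each at the far edge of the region. These covered 52.9% of it, a share exceeded in 5.46% of regions with EZHIP peaks. The whole gene stayed covered in both lists. The 3 CpG islands in the region, of 2186, 813 and 914 bp, lay within or across the edge of the gene and were inside both residual peaks.

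Gfi1b (ENSMUSG00000026815.8, chromosome 2, 28464970 to 28477502, minus strand) lay in a K27R region of 53.4 kb (28441001 to 28494400) and was likewise its only start site. The K27M peak spanned 20.2 kb (28469401 to 28489600) and covered 64.6% of the gene. The EZHIP peak spanned 7.0 kb (28472801 to 28479800), lay wholly inside the K27M peak and covered 37.5% of the gene. A second EZHIP peak of 1.8 kb lay from -8.90 to -7.10 kb relative to the start, upstream of the gene. The internal start of Gfi1b, 6.58 kb into the gene, was in the K27M peak and 1.88 kb outside the EZHIP peak.

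No CpG island was found in the Gfi1b region, and the nearest island was 18.9 kb from its start site. K27R peaks marked 25.1% of genes with an island within 1000 bp of the start and 36.0% of genes without one. Of the 3711 marked genes without an island, 7.22% were kept in both residual lists and 85.8% in neither. Of the 3025 marked genes with an island, 40.0% were kept in both. Gfi1b thus belonged to the smaller group that kept the mark without an island, while the other 3 kept members had one at the start. With only islands of at least 500 bp counted, a limit set with these values in view, 45.3% of K27R genes with an island were kept in both lists and 12.0% of those without one, and Ikzf3 joined Gfi1b in the second group.

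Ebf1 was the only member to lose its mark at the start site in both lines. Ebf1 (ENSMUSG00000057098.7, chromosome 11, 44430819 to 44821593, plus strand) is the longest of the 10 genes, at 390.8 kb. Its K27R region spanned 32.2 kb (44406001 to 44438200), from 24.8 kb upstream to 7.38 kb downstream of the start site, and covered 1.89% of the gene and 4 of its 5 annotated starts. The K27M and EZHIP lists had no peak in this region or over the gene. The nearest EZHIP peak was 5.6 kb wide and lay 101.8 kb upstream, with no gene under it. The nearest K27M peak lay 1085 kb upstream over the Ccnjl start, and 15.5% of genes were farther from a K27M peak. The region held islands of 393 and 311 bp, the first beginning 917 bp downstream of the start site, and neither lay in a residual peak. Among K27R genes with an island within 1000 bp, 42.7% were kept in neither list. Ebf1 also had the narrowest K27R region of the 5 marked members. When K27R genes were divided by region width, with classes chosen after the values were seen, 8.94% of start sites were kept in both lists in regions under 20 kb. The share was 18.0% in regions of 20 to 50 kb, the class of Ebf1, then 22.0% in regions of 50 to 100 kb and 26.7% in wider ones. The shares kept in neither list, in the same order, were 76.4, 68.6, 66.4 and 63.1%.

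Spi1 (Sfpi1 in the annotation, ENSMUSG00000002111.8, chromosome 2, 90922547 to 90955913, plus strand) had no peak over the gene. A narrow K27R region of 3.2 kb lay 37.9 kb downstream of the start site over Mybpc3. The nearest residual peaks covered C1qtnf4, 189.5 kb upstream in K27M and 191.5 kb in EZHIP. None of the 4 annotated Spi1 starts was closer than 23.5 kb to a K27R peak.

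The Ikaros relatives contrasted as sharply as Tal1 and Lyl1. Ikzf2 (ENSMUSG00000025997.7, chromosome 1, 69577788 to 69732534, minus strand) had no peak in any list, and the nearest K27R region, of 6.4 kb, lay 96.5 kb upstream. The nearest residual peaks were at the Erbb4 start, 577.5 kb away in K27M and 575.9 kb in EZHIP. Ikzf3 (ENSMUSG00000018168.8, chromosome 11, 98326216 to 98407345, minus strand) lay wholly inside a K27R region of 273.4 kb (98267801 to 98541200), and 2.23% of K27R regions were wider.

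Ikzf3 was the only member with more EZHIP than K27M cover, a difference shown by 4.05% of all genes. Only a gene body touched by EZHIP peaks could show it, which held for 10.6% of all genes and 4 of the 10 members. A single EZHIP peak of 109.6 kb (98323001 to 98432600) covered the whole gene and all 4 annotated starts, and it ranked 6th in width among 4992 EZHIP peaks. In K27M, 3 peaks of 53.8, 11.6 and 20.4 kb covered 75.3% of the gene and 3 of the 4 starts, with gaps of 8.0 and 12.0 kb between them. The peak over the start site was 2.04-fold as wide in EZHIP as in K27M. Among the 1477 genes with a start site in both lists, 2.51% had a ratio at least as high, and the median ratio was 0.705. With neighbours joined across gaps of up to 10000 bp, the Ikzf3 peak spanned 125.6 kb in EZHIP and 73.4 kb in K27M.

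The Ikzf3 region held 10 start sites, and those kept in both residual lists were Ikzf3, Zpbp2, Gsdma and Gsdma2. Zpbp2, a gene of sperm, was the only other gene with its start in the same residual peak as a member. Grb7 was kept in EZHIP and not in K27M. Erbb2, Ormdl3, 1810046J19Rik, Gm12355 and Gsdma3 were in neither list. Of the 7 CpG islands in the region, the residual peaks of both lists held the same 2, at the starts of Ikzf3 (439 bp) and Zpbp2 (456 bp). The islands at Erbb2 (828 bp) and Ormdl3 (402 bp) lay outside them. Residual peaks covered 54.6% of the region in K27M and 64.4% in EZHIP.

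**Figure D2:**
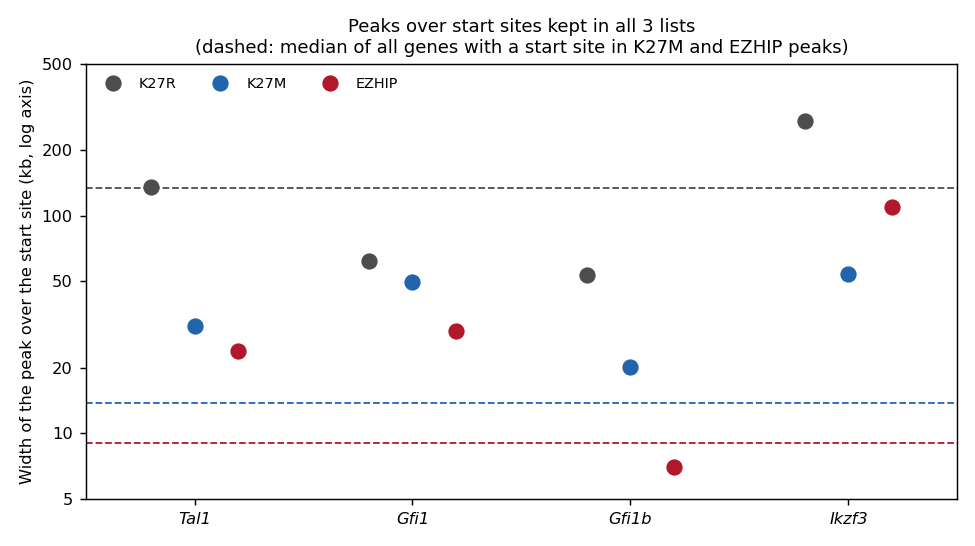
Width in kb, on a log axis, of the K27R, K27M and EZHIP peak over each of the 4 start sites found in all lists (points, 1 library per line), with dashed lines at the medians of the 1477 genes with a start site in both residual lists (133.8, 13.8 and 9.0 kb, in the order of the lists). EZHIP peaks were narrower than K27M peaks at Tal1, Gfi1 and Gfi1b and wider at Ikzf3.

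Set side by side, the K27M peaks over the 4 kept start sites were wider than the median of genes kept in both lists. In EZHIP this held for all but Gfi1b. The peaks of Tal1, Gfi1, Gfi1b and Ikzf3 spanned 31.0, 49.4, 20.2 and 53.8 kb in K27M, where that median was 13.8 kb. Of the genes kept in both lists, 24.3, 12.7, 35.8 and 10.6% had a wider K27M peak, in the same order. The shares with a wider EZHIP peak were 16.3, 12.5, 62.9 and 0.542%. The EZHIP peaks spanned 23.8, 29.6, 7.0 and 109.6 kb against a median of 9.0 kb, so that Gfi1b was below it. The K27R regions spanned 135.6, 62.0, 53.4 and 273.4 kb against 133.8 kb. The EZHIP to K27M width ratio was 0.768 at Tal1, 0.599 at Gfi1 and 0.347 at Gfi1b. With neighbours joined as for Ikzf3, the ratios became 0.463, 0.891 and 0.673, in another order but still below 1, and 1.71 at Ikzf3. As deposited, at these 3 genes the EZHIP peak lay wholly inside the K27M peak, while at Ikzf3 the K27M peak lay wholly inside the EZHIP peak. Over all genes kept in both lists, the EZHIP peak was at least as wide in 21.3%.

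The mark was counted again at fixed distances from the start sites to follow how far it reached. In K27R, 5 members were covered 10 kb upstream and 5 at 10 kb downstream. Downstream these included Runx3, whose start site was unmarked, in place of Ebf1, whose region ended at 7.38 kb. In K27M the numbers upstream and downstream were 3 and 3, and in EZHIP 1 and 3, where Ikzf3 was the only gene covered upstream. At 50 kb downstream, 2 members were covered in K27R, Tal1 and Ikzf3, and Ikzf3 alone in K27M and in EZHIP. Over all genes, 32.4% were covered 10 kb upstream in K27R, 4.14% in K27M and 3.45% in EZHIP. The shares were 27, 3.96 and 2.88% at 10 kb downstream, and 27.7, 3.29 and 2.66% at 50 kb downstream. The K27R count at 50 kb, 2 of 10, was thus close to the share over all genes.

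Gene bodies were then compared by covered length. The 10 genes spanned 982.5 kb, of which K27R peaks covered 170.8 kb (17.4%), K27M peaks 105.5 kb (10.7%) and EZHIP peaks 110.5 kb (11.3%). Over the summed length of all 22351 gene bodies, the covered shares were 21.4, 2.27 and 1.65%. Peaks touched 7 gene bodies in K27R, 5 in K27M and 4 in the EZHIP list, beside 36.1, 11.5 and 10.6% of all genes. Whole bodies were covered in 4, 2 and 3 members, beside 20.1, 2.78 and 1.83% of all genes. The members' totals rested on Ikzf3, which gave 81.1 kb of the K27R total, 61.1 kb of the K27M total and 81.1 kb of the EZHIP total. Without it, a count made after the data were examined, K27R covered 89.6 kb, K27M 44.4 kb and EZHIP 29.4 kb, and the order of K27M and EZHIP turned round. A member had a median covered share of 34.2% with K27R, 10.1% with K27M and 0% with EZHIP, and the median over all genes was 0% for each. Of the 38 annotated starts of the 10 genes, 25 lay in K27R peaks, 20 in K27M peaks and 15 in EZHIP peaks. The share over the annotated starts of all genes was not counted, so these counts have no background. The 5 internal starts of Runx3 were the main difference between the residual lists, and starts of the same gene are not independent.

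**Figure D3:**
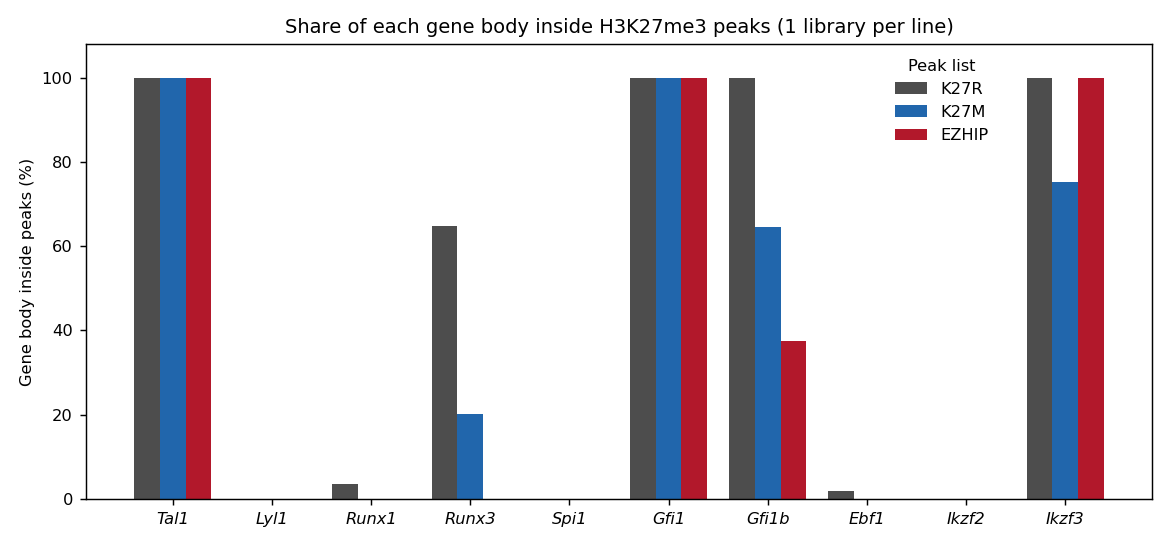
Share of each gene body inside peaks (bars, in percent, 1 library per line) for the K27R, K27M and EZHIP lists. Tal1 and Gfi1 stood at 100% in every list, Gfi1b at 100, 64.6 and 37.5%, Ikzf3 at 100, 75.3 and 100%, and Lyl1, Spi1 and Ikzf2 had no bar.

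Relatives of the members were examined to place them among their families. Of 10 relatives, 5 had a start site in K27R peaks, 2 in K27M and 3 in EZHIP, beside 30.1, 9.02 and 7.74% of all genes. Ikzf1 and Ebf4 were kept in both residual lists. Ebf4 kept peaks of 3.2 kb in K27M and 5.0 kb in EZHIP. Tal2, a further helix-loop-helix paralogue, was marked in K27R over 24.8 kb and kept a 2.4 kb EZHIP peak, with the nearest K27M peak 3206 kb away. A start in EZHIP and not K27M peaks was found in 1.13% of all genes, and the reverse in 2.41%. Spic, an ETS relative of Spi1, and Ebf2 lost the mark at the start in both lists. At Ebf2 a K27M peak of 5.2 kb and an EZHIP peak of 2.0 kb remained 1.27 and 1.87 kb from the start. Runx2, the bone regulator of the Runt family, Spib, Ebf3, Ikzf4 and Ikzf5 had no peak at the start in any list. The Runt family had no marked 5′ end among 3 genes and the Gfi pair was marked in all lists, while the Ikaros and EBF families had marked and unmarked members.

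Of 10 genes listed as partners of the members, 3 start sites lay in K27R peaks, close to the 30.1% of all genes. These were the start sites of Lmo2, Tcf3 and Cbfa2t3. K27M peaks held 2 of the 10 and EZHIP peaks 1, beside 9.02 and 7.74% of all genes. Lmo2, the bridging protein of the Tal1 complex, kept its whole gene in peaks, of 40.6 kb in K27M and 43.4 kb in EZHIP. Cbfa2t3 was kept in K27M and lay 1.19 kb outside the EZHIP peak, and Tcf3 was kept in neither. The remaining partners, Cbfb, Ldb1, Kdm1a, Rcor1, Tcf4, Tcf12 and Zfpm1, had no peak at the start in any list.

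Of 25 other blood regulators, 19 had a start site in K27R peaks, 13 in K27M and 11 in EZHIP, and those 11 were also in K27M. The shares of all genes were 30.1, 9.02 and 7.74%. The 2 genes in K27M and not EZHIP were Cebpa, a granulocyte regulator whose start lay 0.289 kb outside its EZHIP peak, and Hhex, whose nearest EZHIP peak was 113.2 kb away. Of 15 blood cell surface and signalling genes, 8 were marked in K27R, 4 in K27M and 2 in EZHIP. Kit and Epor, receptors for stem cell factor and erythropoietin, were in K27M and not in EZHIP. Their nearest EZHIP peaks lay 401.5 and 83.8 kb from the start.

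**Figure D4:**
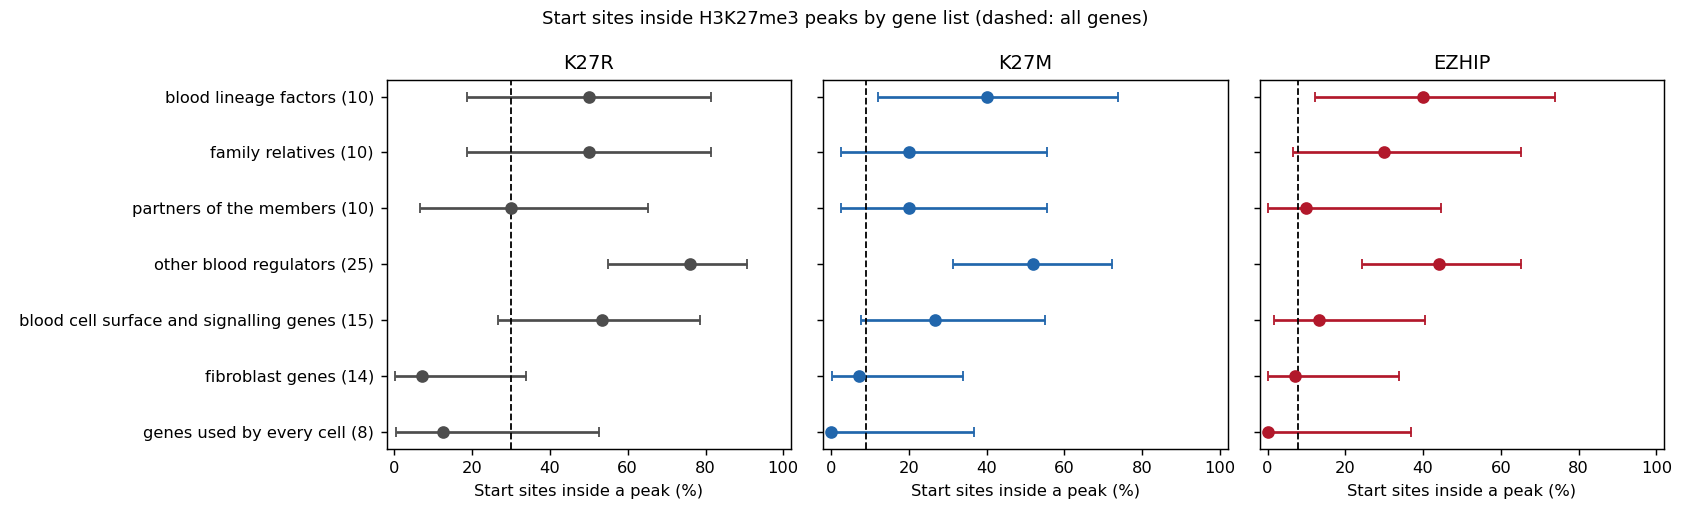
Percent of start sites inside peaks of the K27R, K27M and EZHIP lists (points) for each gene list, with the number of genes in brackets, exact 95% intervals for counting error (bars) and the share of all genes (dashed). The blood lineage factors stood at 50, 40 and 40%, and the other blood regulators at 76, 52 and 44%.

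The labelled cell type was checked at fibroblast genes, whose start sites should lack the mark. Of 14, 13 lay outside peaks in all lists, among them Col1a1, Col1a2, Col3a1, Vim and Thy1. The exception was Pdgfra, whose start site was inside a peak in each list. Over all genes, 69.8% had a start site in no list. The exact interval of 1 in 14, 0.181 to 33.9%, included the share of all genes in each list. Those shares were 30.1% in K27R, 9.02% in K27M and 7.74% in EZHIP. The count therefore did not separate fibroblast genes from genes in general, and the check could not decide the cell type. Of 8 genes used by every cell, Hprt on chromosome X lay in a K27R region and in no residual peak, and the other 7 lay outside peaks. The sources used here do not give the sex of the embryo, and the part of chromosome X was not tested.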

How the data were processed

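MEF chromatin was crosslinked, digested with MNase and immunoprecipitated with an H3K27me3 antibody. By the study's methods and the submitters' processing notes, reads were aligned with Bowtie 1.0.0 to mm9, chromatin of another species served for scaling, and broad peaks were called by the authors with MOSAiCS-HMM, with 1 list deposited per library. The methods give a joining distance (maxgap) of 10000 bp and a minimum size of 1000 bp, but gaps under 10000 bp occurred 1308 times in K27R, 461 times in K27M and 1413 times in EZHIP, so the settings behind each list are uncertain. Whether the scaling entered the calls is not given in the sources used here. Each deposited list holds the start and end of peaks in bp on a 200 bp grid, with no score, count or p-value, so depth is unknown.

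All 20 chromosomes with peaks ended inside the NCBIM37 (mm9) lengths, and GENCODE vM1 was used without conversion. All 10 symbols were found, 1 of them (Spi1) under an older name. Positions are printed from 1. CpG islands were found in the sequence by scoring 17 per CG and -1 per other base, with segments kept above 200 bp, 50% G+C or more and a CpG observed/expected ratio over 0.6 (23505 islands, repeats not masked; the number depends on how segments are found and joined). Distances were taken from the gene's 5′ end. With 1 library per line no test was made; intervals are exact Clopper-Pearson. Named genes are the 10 members, their relatives, and in the other lists those that differ between K27M and EZHIP at the start, with further genes as examples chosen after their values were seen. The members and lists were chosen with earlier results of these data known. Interval tools and island finder were tested on simulated data. Scripts ran in Python 3.11.15 with scipy 1.17.1 for intervals, pandas 2.3.3 and numpy 2.4.6.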

Additional observations from a re-analysis of the deposited data

How the results depend on the processing

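The counts of start sites in K27R, K27M, EZHIP and both residual lists stayed within 1.5-fold under minimum peak widths of 2000 and 5000 bp, joining of neighbours across 10000 bp, a distance of 1000 or 5000 bp to the start, and any annotated start. Counting any start added Runx3 to K27R and K27M, giving 6 and 5 genes, and a distance of 5000 bp added it to K27R. Gene body cover moved in K27M with merging, to 120.5 kb. It moved with 5000 bp added upstream, to 195.8 (K27R), 125.5 (K27M) and 127.8 kb (EZHIP). With only the first 20000 bp of each gene, the totals were 80.6, 55.2 and 49.4 kb. The upstream setting lengthens the stretch measured and this limit shortens it. Their totals in kb therefore do not show a change in the share covered. Merging and this limit put K27M above EZHIP. Without Ikzf3, chosen after the data were examined, the totals were 89.6, 44.4 and 29.4 kb. Of 152 values counted for single genes or for islands, 130 stayed within the tolerance, an exact binomial interval over 200 bp bins for cover and 1.5-fold for counts. Many of them were values of 0 that stayed 0. The minimum widths could move neither cover nor start counts, because no peak over a member was narrower than 5.0 kb. Counting only islands of at least 500 bp, also chosen after the data were examined, left 2 of 5 members with an island at the start, Tal1 and Gfi1. Lyl1, Ebf1 and Ikzf3 have shorter ones. The shares of K27R genes kept in both lists were then 45.3% with and 12.0% without an island. Ending island segments after a score drop of 200, added likewise, gave 23682 islands, the same 5 members, none in the Gfi1b region, and shares of 40.0 and 7.22%. Other finders, or masked repeats, were not tried. A stricter score could not be applied because the lists hold none. No paired analysis was possible because each group had 1 library and no replicate numbers were given. Depth is unknown, and the closest neighbours were 0 bp apart in K27R, 5200 bp in K27M and 1200 bp in the EZHIP list, so that peak widths depend on the calls.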
